A study of Saccharomyces cerevisiae with 7 samples.

Results

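This account describes 86 short introns of budding yeast that were denser than their host messenger RNA in at most 1 of 2 libraries from saturated cultures, out of 300 introns measured. An intron was taken when it was under 200 nt long, had 10 or more reads in at least 1 library, and had a TPM (a level per length, scaled to the library) that was not above the TPM of its host gene in both saturated libraries. Introns of ribosomal protein genes, of genes with several introns and of a short list of named hosts were left out. All 86 host genes were found in the R64 annotation and lie on 16 chromosomes.

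The 7 RNA libraries come from Saccharomyces cerevisiae BY4741, which is haploid, of mating type a, and deleted for LEU2, URA3, MET17 and part of HIS3. Saturated cultures in synthetic complete medium (SC) at 30 °C gave 2 libraries. Cells from log phase, moved into new SC with rapamycin at 100 nM, a drug that blocks the TOR kinase, gave 1 library at 1 h and 1 library at 4 h. A lawn left on SC plates for 3 days gave 1 library, and SC cultures in log phase at an OD600 of 0.5 gave 2 libraries. All groups carry the same strain background, and the labels describe no other genetic change. The series' design text speaks of 10 samples, of which 7 were analysed here. Whether the libraries of 1 group had cultures of their own is not stated, and p-values therefore cover only a spread that may be technical.

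Gene reads per library ranged from 1019287 to 9438379, and the 86 introns together took between 240 and 3000 reads. LEU2 had 0 or 1 read in each library and MET17 0 to 12 reads, whereas URA3 had 44 reads at 4 h of rapamycin and 0 to 3 elsewhere. The a-factor genes MFA1 and MFA2 had 11 to 858 reads per library, and the alpha-factor genes MF(ALPHA)1 and MF(ALPHA)2 had 0 to 7. The log-phase libraries differed in HSP12, a gene of stressed cells, which had 225 TPM in library 1 and 1553 TPM in library 2. What part such differences have in the results was not tested.

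Splicing removes an intron from the precursor RNA as a lariat, a branched loop, while the flanking exons are joined into the messenger RNA. The debranching enzyme Dbr1 normally opens the lariat, and exonucleases then degrade the linear intron quickly. Reads over an intron can therefore come from unspliced precursor, from the lariat or from the excised linear intron, and these tables do not tell the forms apart. TOR promotes growth when nutrients are plentiful, and both saturation and rapamycin lower its activity. Intron density is given below as the intron TPM in percent of the host TPM, so that 100% means equal reads per length over intron and host.

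The choice of members rests on measured values, given here without a test. Of 300 introns, 134 were left out by their host, 27 of the remaining 166 stayed under 10 reads in every library, 36 were denser than the host in both saturated libraries, and 17 of those that remained were 200 nt or longer. Among the 86 members, 55 were at or below the host in each saturated library, 12 were above it only in library 1 and 19 only in library 2. The members just inside the density limit were the introns of RBS1, MRM2 and HNT1, at 92.9%, 96.1% and 98.3% in saturated library 1 and at 330%, 239% and 131% in saturated library 2. Just outside it stood those of UBC12, MAY24 and BET4, at 102.6%, 102.7% and 102.8% in library 1 and at 212%, 210% and 141% in library 2. By length, VMA10 (162 nt), PRP5 (167 nt) and COI1 (194 nt) were the longest members, and SEC27 (200 nt), MTR2 (204 nt) and QCR9 (213 nt) fell just outside. By reads, YKR005C, OST5 and KIN28 reached 10 in their deepest library, while YNL050C and TMA20 stopped at 8 and DTD1 at 9.

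Members were 62 to 194 nt long with a median of 93 nt, and 67 of 86 measured 70 to 130 nt. They had 21 to 1028 reads over all 7 libraries, with a median of 73. In 58 members some library reached 20 reads and in 19 members 50 reads, and 2 members had 10 or more reads in every library. Depth was thinnest in log phase, where 27 members had 10 or more reads in a library and 13 had 3 or fewer in both libraries together. For 10 members the minimum of 10 reads was met at 4 h of rapamycin and in no other library. The deposited lengths of intron and host add up to the annotated span of the host for 79 members. For BCK2, FES1, PRP5, RBS1, MCR1 and MRM2 the deposited host length equals the whole annotated span. Whether the intron lies within that span was not determined. LDO45 overlaps the annotated gene LDO16. Densities of these 7 are therefore less certain.

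Across all conditions the short introns had low densities in log phase and after 1 h of rapamycin, and higher densities in the other conditions. The median density was 64.04% and 60.7% in the saturated libraries, 14.6% at 1 h of rapamycin, 38.3% at 4 h, 55.6% in the lawn, and 18.3% and 13.3% in the log-phase libraries. The number of introns denser than their host was 12 and 19 in the saturated libraries, 2 at 1 h, 3 at 4 h, 19 in the lawn, and 2 and 4 in log phase. Summed over all 86, and not corrected for length, there were 10.5 and 10.4 intron reads per 100 host reads in the saturated libraries, 1.98 at 1 h, 5.87 at 4 h, 9.63 in the lawn, and 2.22 and 2.25 in log phase. Both libraries of each pair lay close together on this sum. The saturated and log-phase values are a description, since the saturated libraries chose the members. In that contrast the median member was higher by 1.81 on the log2 scale (SD 0.10 over 4 pairings of a saturated with a log-phase library), and 64 of 86 had more reads per host read in both saturated libraries than in either log-phase one.

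**Figure D1:**
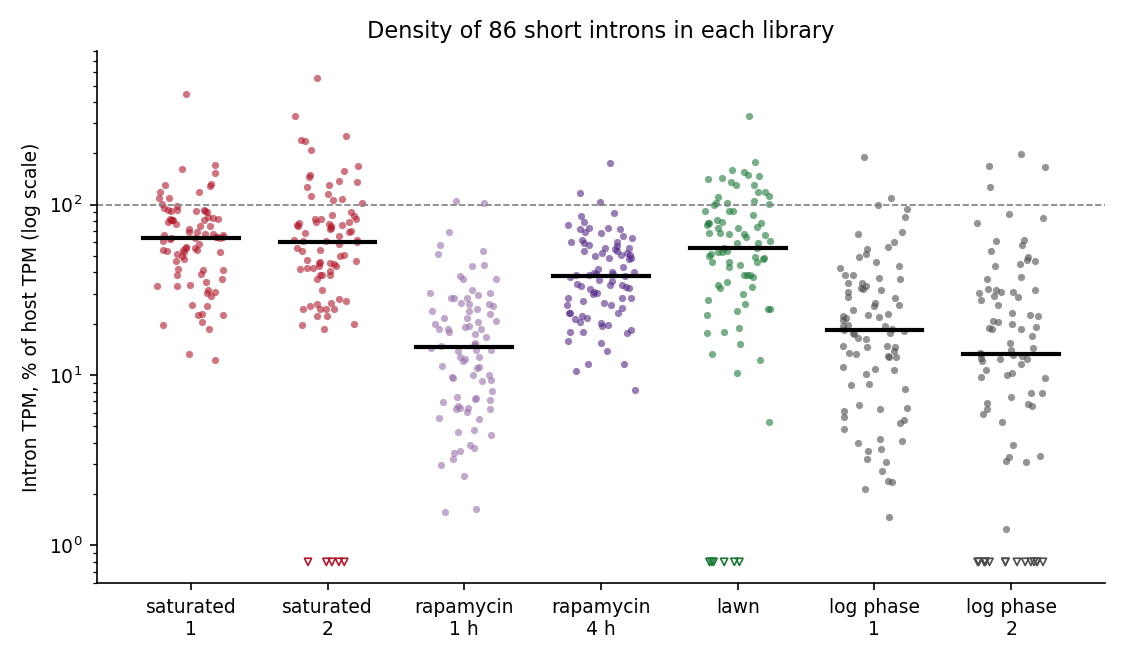
Density of each of the 86 short introns in each of the 7 libraries, as intron TPM in percent of host TPM on a log axis, with 1 point per intron and a black bar at the median. Open triangles at the bottom are introns without reads, and the dashed line marks equal intron and host TPM. Medians lie at 64.04% and 60.7% in the saturated libraries, 14.6% and 38.3% after 1 h and 4 h of rapamycin, 55.6% in the lawn, and 18.3% and 13.3% in log phase.

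The most-read member was the 111-nt intron of HNT1 (YDL125C, chromosome IV, 239019 to 239606 for the host), which encodes a nucleotide hydrolase of the histidine triad family. It had 571 and 121 reads in the saturated libraries, 79 at 1 h of rapamycin, 162 at 4 h, 57 in the lawn, and 27 and 11 in log phase. Its density was 98.3% and 131% in the saturated libraries, 17.3% at 1 h, 68.6% at 4 h, 130% in the lawn, and 11.2% and 15.3% in log phase. The exact 95% counting interval ran from 57.7% to 81.0% at 4 h, from 95.1% to 176% in the lawn, and from 7.34% to 16.4% and 7.58% to 27.8% in the log-phase libraries. The lawn and 4 h values thus lay above both log-phase values by more than counting error, whereas 17.3% at 1 h lay within the wider log-phase interval. Counting intervals here cover counting error only.

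Introns of QCR10, a subunit of the mitochondrial cytochrome bc1 complex, and of the small gene MRA1 came next. The 63-nt intron of QCR10 (YHR001W-A, chromosome VIII, 107826 to 108122) had a density of 118% and 85.5% in the saturated libraries, 21.7% at 1 h, 48.4% at 4 h, 100% in the lawn, and 18.7% and 20.6% in log phase. The 143-nt intron of MRA1 (YPR010C-A, chromosome XVI, 582373 to 582734) stood at 63.7% and 62.2% in the saturated libraries, 7.13% at 1 h, 33.6% at 4 h, 35.2% in the lawn, and 4.84% and 7.85% in log phase. Both introns were scarce in log phase, with 8 and 3 reads for QCR10 and 3 and 2 reads for MRA1.

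FES1, which encodes a nucleotide exchange factor of cytosolic Hsp70, behaved differently. Its 128-nt intron had a density of 54.1% and 19.7% in the saturated libraries, 36.4% at 1 h, 33.5% at 4 h, 38.8% in the lawn, and 31.7% and 44.7% in log phase. Its saturated values, on 143 and 9 reads, lay on both sides of those of every other group. The counting interval of saturated library 1, 45.3% to 64.2%, lay above that at 4 h, 26.4% to 42.1%. It overlapped that in the lawn, 18.3% to 73.0%. The log2 change of the FES1 intron relative to host was -0.05 ± 0.50 at 4 h and 0.16 ± 0.64 in the lawn against log phase (SE, edgeR adjusted p = 0.947 and 0.841). VMA10, a subunit of the vacuolar proton pump, had a low-density intron, at 22.6% and 24.3% in the saturated libraries, 5.52% at 1 h, 11.6% at 4 h, 29.7% in the lawn, and 3.20% and 5.89% in log phase. The 83-nt intron of RIM1, the mitochondrial single-stranded DNA-binding protein, differed widely within a group, with 443% and 81.9% in the saturated libraries, on 82 and 5 reads. RIM1 stood at 14.0% at 1 h, 118% at 4 h, 330% in the lawn, and 18.2% and 23.1% in log phase.

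**Figure D2:**
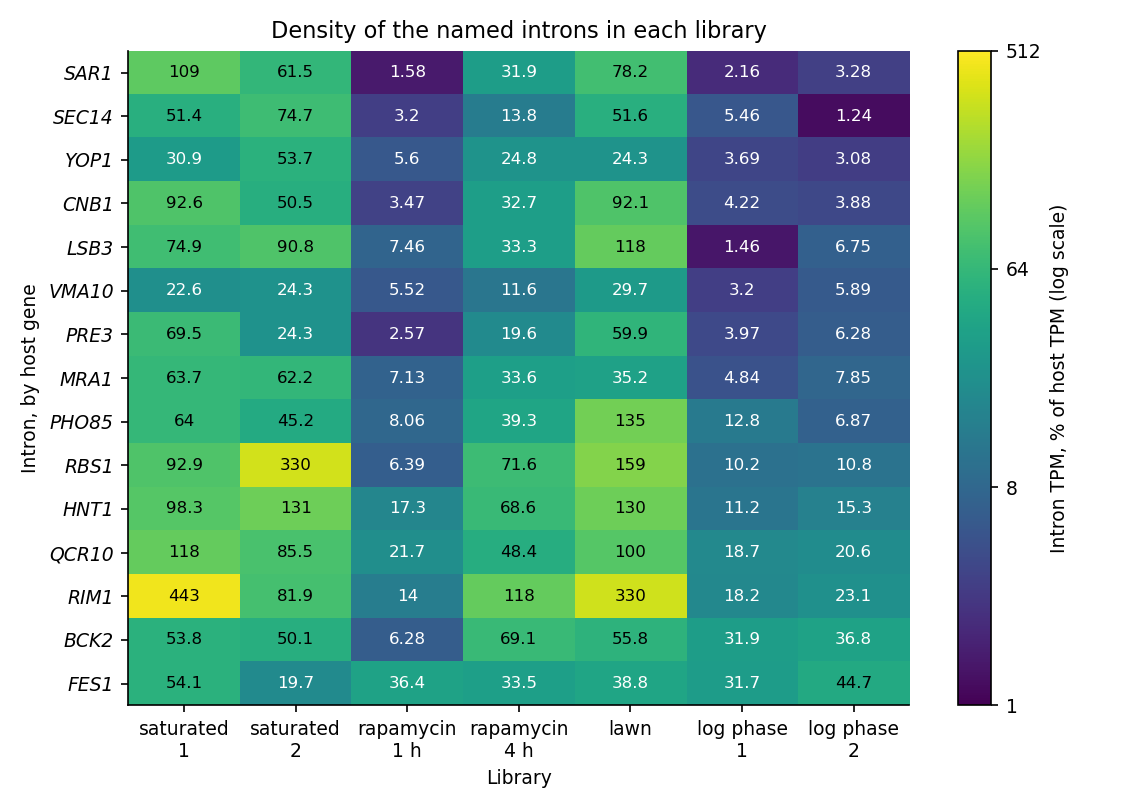
Density of 15 introns, chosen by most reads or by the largest rises, in the 7 libraries, as intron TPM in percent of host TPM on a log colour scale (yellow high, violet low) with the value in each cell. SAR1 reads 109% and 61.5% in the saturated libraries, 31.9% at 4 h and 78.2% in the lawn, against 1.58% at 1 h and 2.16% and 3.28% in log phase, whereas FES1 lies between 19.7% and 54.1% in every library.

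Rapamycin for 4 h was set against log phase to ask how these introns stand relative to their hosts after the drug. The treated cells had also been moved into new SC, and no library of cells moved without drug was analysed. Drug, new medium and time therefore cannot be told apart. Of 86 short introns, 25 rose and 0 fell relative to host, against 63.7% of all 270 introns tested that rose and 0.741% that fell (edgeR quasi-likelihood, adjusted after Benjamini and Hochberg at 0.05). The share of members was 29.1%. Their median log2 change was 1.06, that of all introns 1.55, and 73 of 86 members had a positive value. DESeq2 called 14 higher and limma 17. No member fell at an unadjusted p under 0.05, nor by DESeq2 or limma. None of the 10 introns that passed the read minimum at 4 h alone was among the 25.

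The largest rise belonged to SAR1, the GTPase that starts COPII vesicle budding at the endoplasmic reticulum. Its 139-nt intron (YPL218W, chromosome XVI, 138698 to 139409) had 69 reads at 4 h, against 9 and 4 in log phase. The density was 31.9% at 4 h, with a counting interval of 24.6% to 40.8%, against 2.16% and 3.28% in log phase. That is a log2 change of 3.68 ± 0.53 (SE, edgeR adjusted p = 1.1e-10). CNB1, the regulatory subunit of calcineurin, had 32.7% at 4 h, against 4.22% and 3.88%, a rise of 2.91 ± 0.81 (adjusted p = 0.000805). YOP1, a membrane-shaping protein of the endoplasmic reticulum, had 24.8%, against 3.69% and 3.08%, a rise of 2.81 ± 0.51 (adjusted p = 3.5e-07). RIM1 rose by 2.57 ± 0.49 (adjusted p = 1.12e-06), and its intron was denser than the host at 4 h. RBS1, a protein linked to assembly of RNA polymerase III, had 71.6%, against 10.2% and 10.8%, a rise of 2.74 ± 0.81 (adjusted p = 0.00169). LSB3, an actin-patch protein, had 31 reads at 4 h, against 1 and 2 in log phase, and the ratio relative to host reads was 10.9 with a counting interval of 3.40 to 55.7. In each of these 6 the 4 h density exceeded both log-phase densities.

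Each rapamycin time and the lawn had 1 library, so their spread was taken from the log-phase and saturated pairs. Without log-phase library 1 the count at 4 h was 10, and RBS1 was then no longer called. With the median intron taken as no change, 1 member was higher at 4 h and 5 were lower.

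After 1 h of rapamycin no rise relative to host was called. Of 86 introns 0 rose and 1 fell by edgeR, beside 4.44% of all introns that rose and 1.85% that fell, and DESeq2 and limma called 0 members in either direction. At an unadjusted p under 0.05, 0 were higher and 3 lower. The median log2 change was -0.34 over members and -0.11 over all introns. The 1 intron that fell belongs to IST1, a regulator of the ESCRT machinery of endosomes, named here after its values were seen. It had 4 reads at 1 h, against 10 and 0 in log phase, and fell by 3.17 ± 1.01 on the log2 scale (SE, edgeR adjusted p = 0.0285), a call lost without log-phase library 1. SAR1 stood at 1.58% at 1 h, against 2.16% and 3.28% in log phase, and HNT1 at 17.3%, against 11.2% and 15.3%.

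Set directly against each other, the rapamycin libraries differed in 36 of 86 members, all higher at 4 h than at 1 h, beside 61.9% of all introns that were higher and 0.741% that were lower. The share of members was 41.9%. Of the 36, 6 (DCN1, IAI11, MOB1, MOB2, RCF3 and YKR005C) reached 10 reads at 4 h only, so that they entered through the group where they are high, and the other 30 were among 76 members. The median log2 difference was 1.31 for members and 1.49 for all introns. SAR1 had a density of 31.9% at 4 h, against 1.58% at 1 h, a log2 difference of 4.31 ± 0.55 (SE, edgeR adjusted p = 9.79e-13). RBS1 had 71.6%, against 6.39%, a difference of 3.38 ± 0.91 (adjusted p = 0.000782). BCK2, a protein that promotes G1 transcription, had 69.1% on 35 reads, against 6.28% on 2 reads, a difference of 3.29 ± 0.86 (adjusted p = 0.000526). BCK2 had 31.9% and 36.8% in log phase, and its 4 h value was not called against log phase. CNB1, RIM1 and PRE3, the last a catalytic subunit of the proteasome, differed by 3.18 ± 0.76, 3.07 ± 0.53 and 2.91 ± 0.58. DESeq2 called 15 members and limma 19, and with the median intron taken as no change 2 were higher and 2 lower.

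**Figure D3:**
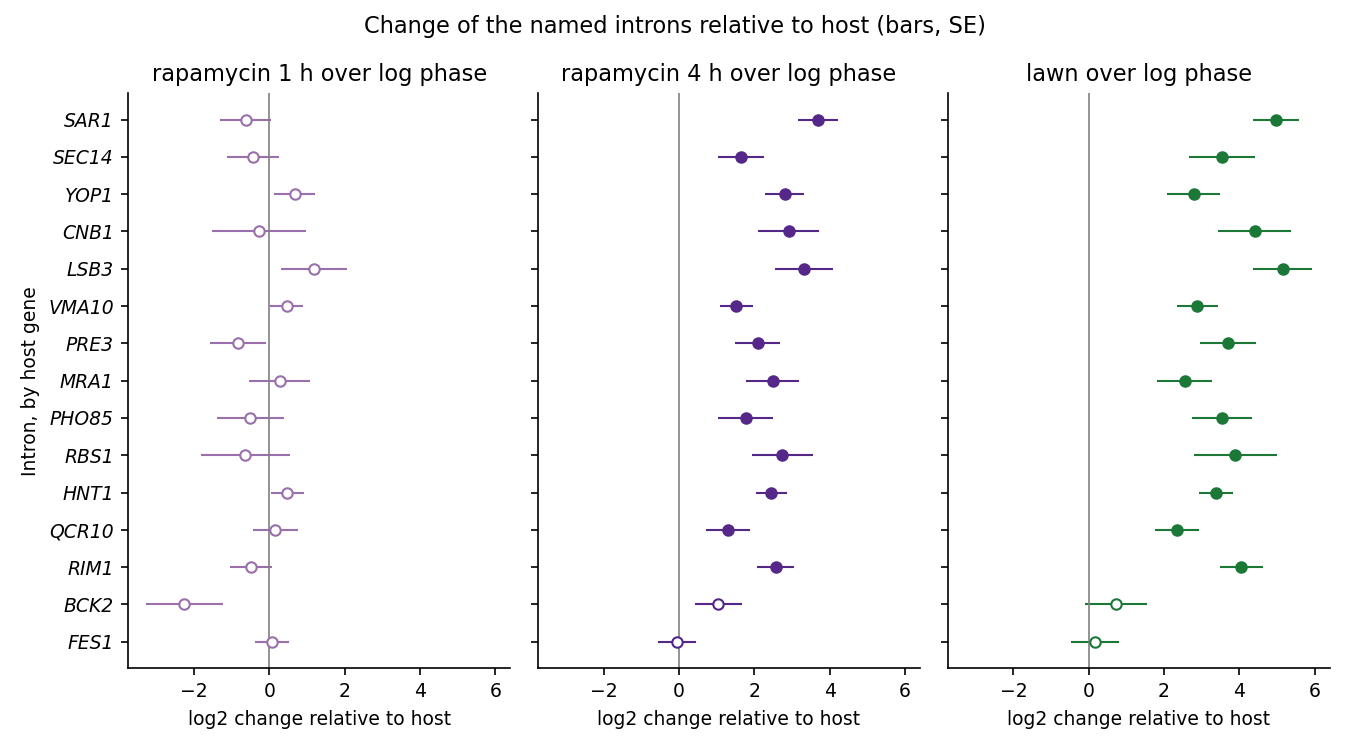
Log2 change of 15 introns relative to host (edgeR, with bars of 1 SE) at 1 h and 4 h of rapamycin and in the lawn, each against log phase, with filled points past an adjusted p of 0.05. The LSB3 values rest on 3 log-phase reads. SAR1 stands at -0.63 at 1 h, 3.68 at 4 h and 4.97 in the lawn, while FES1 stays within 0.16 of 0 in all 3.

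The lawn was set against log phase to ask how introns stand after days of growth on a plate. Relative to host 33 of 86 short introns rose and 0 fell, beside 68.9% of all introns that rose and 0.741% that fell. The share of members was 38.4%. The median log2 change was 1.61 for members and 2.35 for all introns, and 68 of 86 were positive. No member fell at an unadjusted p under 0.05 or by DESeq2, whereas limma called 43 higher and 3 lower. The introns of MOB1, BET1, MOB2, MND1, SPT14 and LDO45 had no lawn reads, on 15 to 50 host reads each, which allows densities of up to 28.1% to 159%. With these 6 at the limit of 3 reads the members' median was 1.78. With the median intron taken as no change, 3 members were higher and 15 lower in the lawn.

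SAR1 had a density of 78.2% in the lawn, against 2.16% and 3.28% in log phase, a rise of 4.97 ± 0.62 (SE, edgeR adjusted p = 5.1e-14). RIM1 rose by 4.06 ± 0.57 (adjusted p = 1.31e-11). PRE3 had 59.9%, against 3.97% and 6.28%, a rise of 3.70 ± 0.74 (adjusted p = 1.96e-06). SEC14, the phosphatidylinositol transfer protein of the Golgi, had 51.6%, against 5.46% and 1.24%, a rise of 3.54 ± 0.87 (adjusted p = 0.000116). PHO85, a cyclin-dependent kinase of nutrient signalling, had 135%, against 12.8% and 6.87%, a rise of 3.54 ± 0.80 (adjusted p = 2.99e-05). LSB3 had 118% in the lawn, against 1.46% and 6.75%, which is 38.6 times as many reads per host read (counting interval 11.4 to 203). In all 6 the lawn value lay above both log-phase values.

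Members were also grouped by lists of host roles, which were set by hand and are not complete. The list of vesicle traffic and endosomes held 12 members. Of these 6 rose relative to host at 4 h, 7 in the lawn and 0 at 1 h, where 0 were also past an unadjusted p under 0.05 or called by DESeq2. Of all introns 63.7% rose at 4 h and 68.9% in the lawn, the shares beside which the role counts here and below stand. DESeq2 called 5 and 7 of the 12. Another 42 members stood on no list, IST1 with its endosomal role among them. Of these 42, 9 rose at 4 h and 13 in the lawn (DESeq2 5 and 9). SEC17, which recycles SNARE complexes, had a density of 52.1% at 4 h and 49.6% in the lawn, against 10.9% and 6.56% in log phase, and rose by 2.42 ± 0.57 at 4 h and 2.34 ± 0.66 in the lawn (SE, edgeR adjusted p = 6.78e-05 and 0.000772). VMA10 rose by 1.52 ± 0.44 and 2.88 ± 0.55 (adjusted p = 0.00138 and 5.79e-07). None of the 4 SNARE genes of the list was called relative to host. SFT1 had 40.1% at 4 h and 24.5% in the lawn, against 49.2% and 37.4% in log phase. The others were BET1, BOS1 and SNC1. NYV1, a SNARE gene on no list, was higher relative to host at 4 h than at 1 h, and was not called against log phase. GOT1, a gene of Golgi transport on no list, rose at 4 h and was not called in the lawn.

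Among 7 members of the ubiquitin and proteasome list, 2 rose at 4 h and 3 in the lawn (DESeq2 1 and 2), beside 63.7% and 68.9% of all introns. UBC5, a ubiquitin-conjugating enzyme induced by stress, had 38.7% at 4 h and 72.5% in the lawn, against 12.7% and 19.9% in log phase on 2 reads and 1 read. Its ratio relative to host reads in the lawn was 5.01, with a counting interval of 1.54 to 25.8. UBC8, a conjugating enzyme for degradation of gluconeogenic enzymes, had 38.2% at 4 h and 32.5% in the lawn, against 22.3% and 30.8%, and was not called. Of 6 members on the mitochondria and respiration list, 2 rose at 4 h and 2 in the lawn, QCR10 and RIM1 both times. On that list 5 were higher at 4 h than at 1 h, beside 61.9% of all introns. It leaves out other mitochondrial hosts, among them OM14 and TMH18, whose introns rose relative to host at 4 h and in the lawn. CMC4, described below, is another, and its intron was not called. Within the list DESeq2 called 1 at 4 h, 2 in the lawn and 1 between the rapamycin times. QCR10 rose by 1.30 ± 0.59 at 4 h and 2.35 ± 0.58 in the lawn (SE, edgeR adjusted p = 0.0414 and 0.000123). COX5B, the hypoxic isoform of a cytochrome c oxidase subunit, had 19.4% at 4 h, against 6.03% at 1 h, a difference of 1.67 ± 0.57 (adjusted p = 0.00815).

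The spliceosome list held the hosts LSM2, MUD1, PRP5, SMD2 and LSM7. Of these introns 3 rose at 4 h and 4 in the lawn (DESeq2 1 and 4), beside 63.7% and 68.9% of all introns. LSM2, part of the ring that binds U6 RNA, had 36.0% at 4 h and 59.7% in the lawn, against 14.6% and 5.29% in log phase, with rises of 1.56 ± 0.61 and 2.28 ± 0.78 (SE, edgeR adjusted p = 0.0192 and 0.00596). MUD1, a protein of the U1 particle, had 179% in the lawn, against 6.30% and 43.8% on 1 and 2 reads, which is 12.2 times as many reads per host read (counting interval 3.40 to 66.0). SMD2 and LSM7 had 1 and 2 log-phase reads in all, and their lawn ratios were 25.1 (interval 3.37 to 1116) and 23.7 (4.23 to 240). PRP5 encodes the helicase of branch-site recognition. Its intron had 72.8% at 4 h and 101% in the lawn, against 84.4% and 167% in log phase, and was not called.

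RNA processing and export held 5 members, of which 2 rose at 4 h and 3 in the lawn (DESeq2 1 and 3), beside 63.7% and 68.9% of all introns. YSF3, on this list and not on the spliceosome list, was not called. PTC7, a protein phosphatase placed on that list, is no RNA-processing enzyme, and its intron had 49.9% at 4 h and 103% in the lawn, against 54.6% and 31.7% in log phase, without a call. Transcription, chromatin and DNA repair held 5, of which 2 rose at 4 h and 3 in the lawn (DESeq2 0 and 3). KIN28, the kinase of TFIIH, had 7 reads in the lawn, against 5 and 0 in log phase, and rose by 2.77 ± 1.08 (SE, edgeR adjusted p = 0.0162). IWR1, which takes RNA polymerase II into the nucleus, had 50.4% at 4 h and 78.8% in the lawn, against 33.2% and 78.5%. RAD14, of nucleotide excision repair, had 55.0% and 42.9%, against 38.8% and 0%. Of 4 members on the actin and polarity list, 0 rose at 4 h by edgeR, at an unadjusted p under 0.05 or by DESeq2. In the lawn 1 rose, which was KIN28 again, a kinase of TFIIH and no actin or polarity gene. LSB3, the actin-patch protein named above, is not on that list, and its intron rose at 4 h and in the lawn. GIM4, a prefoldin subunit of that list, had 40.3% at 4 h and 26.0% in the lawn, against 17.5% and 22.5%. MOB2, an activator of the kinase Cbk1, had 60.2% on 15 reads at 4 h and no lawn reads, against 26.5% and 20.5%. NMD2, a factor of nonsense-mediated decay, was the 1 member of the decay list and was not called.

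Few members were dense in growing cells. PMI40, mannose-6-phosphate isomerase, was the 1 member with 50 or more log-phase reads, with 92.1% and 75.7% in the saturated libraries, 28.3% at 1 h, 17.8% at 4 h, 86.7% in the lawn, and 25.6% and 19.0% in log phase. Among the 14 members with 20 or more log-phase reads, a limit set after the values were seen, 4 stood highest. REC107, needed for meiotic double-strand breaks, had the densest intron of these in log phase, with 93.3% and 65.6% in the saturated libraries, 102% at 1 h, 104% at 4 h, 112.5% in the lawn, and 110% and 169% in log phase. Its counting intervals overlapped in all 7 libraries, for example 63.98% to 161% at 4 h, against 58.5% to 190% and 64.5% to 375% in log phase. PRP5 and the 2 next, COI1 and SFT1, had pooled log-phase densities of 104%, 57.6% and 45.6%, and none of the 4 rose relative to host in any of the tested conditions. Lowest in that group were VMA10 (3.79%), HNT1 (12.1%), LSM2 (12.9%) and CPT1 (14.1%). The other meiotic host, MND1, had 2 log-phase reads in all, and SRC1, an inner nuclear membrane protein on the same list, rose to 53.1% at 4 h and 141% in the lawn, against 13.3% and 9.60% in log phase (log2 change 2.05 ± 0.71 and 3.45 ± 0.75, SE, edgeR adjusted p = 0.00752 and 1.38e-05).

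A rise relative to host can come with more intron or less host, so both were also tested on their own, scaled to the gene reads of each library. In bulk RNA a change in the share of cells and a change in the amount per cell cannot be told apart. Intron level rose for 21 members and fell for 1 at 4 h, beside 20.4% and 1.48% of all introns, and rose for 30 and fell for 0 in the lawn, beside 24.4% and 2.22%. DESeq2 called 3 rises at 4 h and 17 in the lawn, and a replicate block gave 11 at 4 h. Of the 21, DCN1, MMS2 and RCF3 reached 10 reads at 4 h only, which leaves 18 among the other 76 members. No member fell in the lawn at an unadjusted p under 0.05 or by DESeq2. Of the 25 members that rose relative to host at 4 h, 14 also rose in level, and of the 33 in the lawn 24 did. The median log2 change in level over those 25 was 2.22 and in their hosts -0.24, and over those 33 it was 3.20 and -0.43. At 1 h level rose for 0 members and fell for 3, beside 1.11% and 39.6% of all introns, with 1 higher and 5 lower at an unadjusted p under 0.05 and 0 by DESeq2 in either direction. These 3 were BCK2, MOB2 and SFT1, and PMI40 was the 1 that fell at 4 h, all named after their values were seen. Of the 107 introns behind the 39.6% at 1 h, 99 belong to ribosomal protein genes, which had 104 introns tested. Of introns denser than their host in both saturated libraries 2 of 36 fell, and of long introns not denser than their host 1 of 17. Without log-phase library 1 level rose for 1 member at 4 h and 15 in the lawn, without log-phase library 2 for 5 at 4 h, and with plain library totals 2 rose and 1 fell at 1 h.

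**Figure D4:**
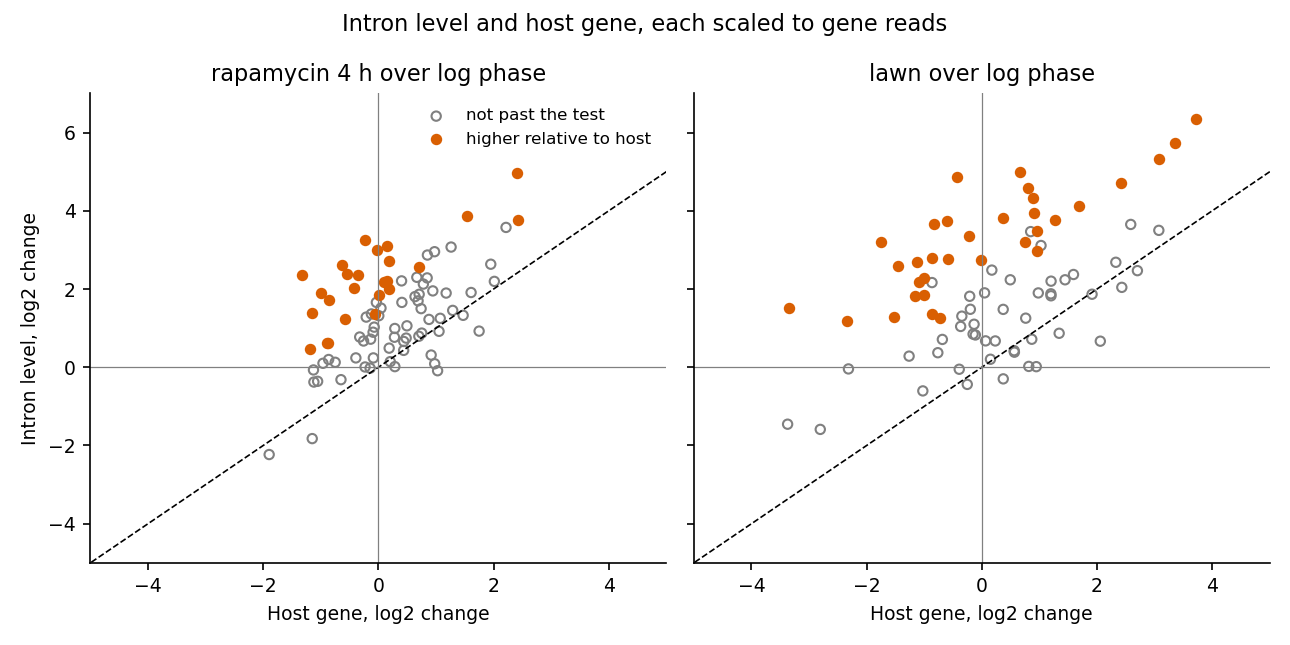
Log2 change in intron level against log2 change in host gene for the short introns at 4 h of rapamycin and in the lawn, each against log phase, with introns past the test relative to host filled and a dashed line where both changes are equal. Introns without reads in the tested library are left out. SAR1 lies at a level of 2.36 and a host of -1.32 at 4 h, and QCR10 at 3.78 and 2.42, so that both lie above the dashed line on opposite sides of 0 for the host.

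Host messenger RNAs moved both ways. At 4 h 12 hosts rose and 7 fell, beside 14.8% and 11.5% of all 5827 genes tested, and in the lawn 20 rose and 11 fell, beside 20.7% and 20.9%. At 1 h 7 rose and 0 fell, beside 9.18% and 11.5%, with 7 lower at an unadjusted p under 0.05 and 0 by DESeq2. SAR1 had 255 TPM at 4 h and 190 TPM in the lawn, against 435 and 449 TPM in log phase, so that its messenger fell by 1.32 at 4 h and by 1.75 in the lawn on the log2 scale (SE 0.36 and 0.38, edgeR adjusted p = 0.0267 and 0.00593). Its intron level rose meanwhile by 2.36 ± 0.54 and 3.20 ± 0.58 (SE, adjusted p = 0.0165 and 0.00414). QCR10 did the opposite on the host side, with 828 TPM at 4 h and 1591 TPM in the lawn, against 98.4 and 118 TPM in log phase. QCR10 messenger rose by 2.42 ± 0.38 and 3.35 ± 0.39 (adjusted p = 0.00352 and 0.000377) and its intron level by 3.78 ± 0.52 and 5.73 ± 0.52 (adjusted p = 0.00162 and 0.00015). MRA1 messenger likewise rose by 2.4 ± 0.33 and 3.73 ± 0.34, and its intron level by 4.98 ± 0.60 and 6.35 ± 0.60.

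SEC14 and YIP3, another gene of vesicle traffic, were like SAR1 in that the host fell at 4 h while the intron rose relative to it, and neither intron rose in level. SEC14 messenger fell by 1.19 (SE 0.32, edgeR adjusted p = 0.0265), and its intron level changed by 0.46 ± 0.63 (adjusted p = 0.646). In the lawn the same held for SEC14, YIP3, VMA10, ERV41 and UBC9, while RIM1 and SAR1 also rose in level. UBC8 and COI1 were the reverse case, in which intron level rose with the host and density was not called. UBC8 messenger rose by 1.95 ± 0.33 at 4 h and its intron by 2.64 ± 0.71 (adjusted p = 0.0047 and 0.0319). Splits of host calls moved with scaling. RLE size factors gave 11 higher and 3 lower at 1 h, and plain library totals, which raise the median of all genes to 0.32 at 1 h, 0.39 at 4 h and 0.47 in the lawn, gave 16 and 0, 21 and 1, and 30 and 8. Without both saturated libraries 25 hosts rose and 8 fell at 1 h, 22 rose and 19 fell at 4 h, and 26 rose and 25 fell in the lawn.

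Genes that make or destroy excised introns were mostly not called. Of 48 spliceosome genes tested 0 changed at 1 h by edgeR, 1 rose and 2 fell at 4 h, and 1 rose and 2 fell in the lawn, with median log2 changes of -0.41, 0.07 and -0.07. Among all genes the shares called higher and lower were 9.18% and 11.5% (1 h), 14.8% and 11.5% (4 h), and 20.7% and 20.9% (lawn). At 1 h 5 of these were lower at an unadjusted p under 0.05, and DESeq2 called 0. PRP5 rose at both, by 0.92 ± 0.29 and 0.87 ± 0.30 (SE, edgeR adjusted p = 0.0457 and 0.044), whereas DESeq2 called 0 spliceosome genes higher in either. SUB2, a helicase of early assembly and export, fell by 1.57 at 4 h and by 2.57 in the lawn. SMD1 fell at 4 h and LSM5 in the lawn. Of 20 genes of lariat debranching and intron decay, 0 rose and 4 fell at 1 h, 0 rose and 2 fell at 4 h, and 1 rose and 3 fell in the lawn, with medians of -0.61, -0.17 and -0.54, beside falls of 11.5%, 11.5% and 20.9% of all genes. DESeq2 likewise called 0 higher at 1 h and 4 h, and 0 were higher there at an unadjusted p under 0.05. PRP43, the helicase that releases the lariat from the spliceosome, fell by 4.18 at 1 h, by 1.90 at 4 h and by 3.22 in the lawn. MTR4, a helicase of the nuclear exosome, fell by 4.00, 1.42 and 1.85. RRP6 and RAI1 fell at 1 h, SKI8 fell in the lawn and UPF3 rose there. PRP43, MTR4, RRP6 and RAI1 are also known for processing ribosomal RNA. DBR1 itself had log2 changes of -0.30 ± 0.33, -0.13 ± 0.33 and -0.40 ± 0.37 (SE, adjusted p = 0.571, 0.792 and 0.414). These genes were named after their values were seen.

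Beside other introns the short members had fewer reads, so calls were also counted at a higher shared minimum of reads. That minimum does not make depth equal between classes. Median log-phase reads were 6 and 2 for the 86 members and 7 and 2 for introns denser than their host. They were 38 and 11 for long introns not denser than their host, and 216 and 59 for ribosomal protein introns. With 50 or more reads in a library required, 9 of 19 members rose at 4 h and 9 of 19 in the lawn, both 47.4%. SEC17 and YOP1, among the 9 at 4 h, reached 50 reads at 4 h only, so that they entered through the group where they are high. Of all introns with that depth 142 of 175 rose at 4 h (81.1%) and 148 of 175 in the lawn (84.6%). Introns of any length that were denser than their host in both saturated libraries had 16 of 19 in each. Long introns not denser than their host had 6 of 17 at 4 h and 10 of 17 in the lawn, and introns of ribosomal protein genes 100 of 104 and 102 of 104. The differences between classes were not tested. In saturated over log phase, given as a description, the median log2 change was 1.81 for members, 1.52 for the long introns, 3.04 for those denser than their host and 2.23 for ribosomal protein introns.

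**Figure D5:**
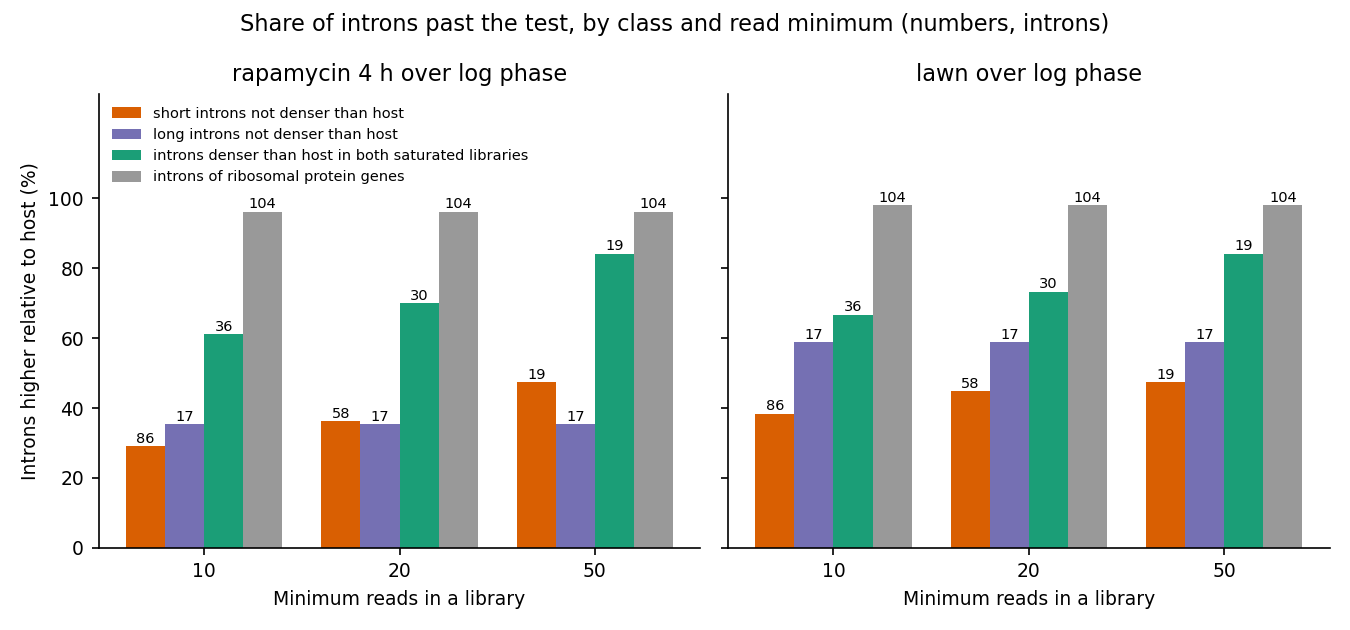
Share of introns in percent that rose relative to host (edgeR, adjusted p under 0.05) at 4 h of rapamycin and in the lawn, each against log phase, for 4 classes of intron and a minimum of 10, 20 or 50 reads in a library, with the number of introns above each bar. For the short introns not denser than host the share is 29.1% at a minimum of 10 reads and 47.4% at 50 reads at 4 h, and 38.4% and 47.4% in the lawn. Among short introns that rose at 4 h, CNB1, RBS1 and RUB1 reached 20 reads at 4 h only. SEC17 and YOP1 reached 50 reads at 4 h only.

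The order of densities among members held between some libraries and not others. Spearman's rho between the log-phase libraries was 0.78 over the 71 members with reads in both. Pooled log-phase density had a rho of 0.74 with 1 h of rapamycin (86 members), 0.59 with 4 h (86) and 0.13 with the lawn (80). Rapamycin at 4 h and the lawn had 0.47 (80). The saturated libraries, of unequal depth, had 0.25 (81), or 0.36 over the 19 members with 50 or more reads. These values describe the libraries, are taken across introns that share them, and carry no test.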

How the data were processed

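Libraries were grouped by their titles. The submitters' processing notes name cutadapt 1.8, STAR 2.4 and build R64 (sacCer3). The counting tool is not given in the sources used here, and neither is strand. Per the labels' protocols, ribosomal RNA was removed from total RNA, and short fragments were read from 1 end. The authors deposited, per the file headers, a read count and a TPM value for each of 6665 genes and 300 introns. The values taken as counts are whole, and the deposited TPM of genes and introns sums to 1000000 per library. Intron length was taken as 330 nt times the ratio of reads per TPM to that of the YBR078W intron. Deposited gene lengths are coding lengths (99.97% are multiples of 3), so reads outside coding sequence do not enter host TPM.

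edgeR 4.0.16 (R 4.3.3, quasi-likelihood, two-sided, Benjamini-Hochberg at 0.05) tested introns relative to host (terms for library, column kind and kind by group; 270 introns with 10 or more reads in a library), intron level (scaled by TMM gene reads) and genes (TMM, low-count filter, 5827 genes). The fits had 2 residual degrees of freedom and infinite, 6.67 and 6.94 prior ones. The SE given with edgeR values was derived as the absolute log2 change over the square root of the F statistic of its test. The limit of 3 reads for introns without lawn reads served only the densities and the median given with it, and the fits used the counts unchanged. Alternatives used DESeq2 1.42.0, limma 3.58.1 (pseudocount 0.5) and other scalings, filters and libraries. Counts of replicate pairs differed beyond sampling noise (chi-square over its degrees of freedom of 35.9 for saturated and 16.1 for log phase). Code was tested on simulated data.

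Members with full values are the 6 with most reads, up to 6 largest rises and 4 falls per contrast with 20 or more reads in it, those with 50 or more log-phase reads, those beside each limit and up to 3 per role list. Members, lists and tests were chosen with earlier results of these data known. Sequences and intron coordinates were not used here.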

Additional observations from a re-analysis of the deposited data

Results flagged for a closer look

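The rapamycin libraries at 4 h and 1 h differed by a direct test in 36 of 86 members relative to host, each higher at 4 h, a share of 41.9% beside 61.9% of all introns. Each time had 1 library, so the length of treatment and the library cannot be told apart. Of the 36, 6 (DCN1, IAI11, MOB1, MOB2, RCF3 and YKR005C) reached 10 reads at 4 h only. DESeq2 called 15, and with the median intron taken as no change 2 were higher and 2 lower. The named differences on the log2 scale were 4.31 for SAR1, 3.38 for RBS1, 3.29 for BCK2, 3.18 for CNB1, 3.07 for RIM1 and 2.91 for PRE3 (edgeR). At 1 h the RBS1 and BCK2 introns had 3 and 2 reads. No group held 4 or more libraries, so no library was tested for standing apart from its group.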

How the results depend on the processing

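None of the introns named for their rises changed sign under the settings run. Of 180 values of these introns under other settings 167 kept their call and 13 lost it, 12 of these with the median intron as no change and 1 (RBS1 at 4 h) without log-phase library 1. The IST1 call at 1 h is not among these. Counts below are for 1 h, 4 h and lawn against log phase, and 4 h against 1 h, in that order where not named.

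Relative to host, leaving out 1 library gave 0 rises at 1 h, 10 to 26 at 4 h, 23 to 35 in the lawn and 27 to 40 at 4 h against 1 h, and 0 to 1 falls at 1 h. DESeq2 gave 14 rises at 4 h and 15 against 1 h, limma 19 against 1 h and 3 falls in the lawn, and both gave 0 falls at 1 h. With the median intron as no change, rises were 1, 3 and 2 and falls 5, 15 and 2 (4 h, lawn, 4 h against 1 h). Members with 50 or more reads, 19 in number, gave 9, 9 and 12 rises and 0 falls at 1 h, having fewer members. Of these 19, SEC17 and YOP1 reached 50 reads at 4 h only.

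In intron level, leaving out 1 library gave 0 to 2, 1 to 28 and 15 to 30 rises and 0 to 3, 0 to 1 and 0 to 1 falls. DESeq2 gave 3 and 17 rises (4 h, lawn) and 0 falls at 1 h and 4 h. Plain library totals gave 2, 34 and 47 rises and 1 fall at 1 h. Without both saturated libraries there were 2 rises at 1 h and 1 fall in the lawn. The 55 members at or below host in each saturated library gave 19 rises in the lawn, and those with 50 or more reads 8 and 12 rises (4 h, lawn) and 0 falls at 1 h.

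For hosts, leaving out 1 library gave 2 to 26, 5 to 22 and 12 to 26 rises and 0 to 10, 1 to 19 and 8 to 26 falls. Without both saturated libraries there were 25 and 22 rises (1 h, 4 h) and 8, 19 and 25 falls. No filter gave 11 rises and 3 falls at 1 h, RLE 11 and 3, and plain totals 16 rises at 1 h and 21 with 1 fall at 4 h. The 55 stricter members gave 6 and 12 rises (4 h, lawn) and 7 falls in the lawn, and those with 50 or more reads 1, 5 and 6 rises and 2 and 4 falls (4 h, lawn).

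The replicate block (log-phase and saturated libraries of 1 number) left the calls relative to host at 25, 33 and 36, and gave 11 level rises at 4 h and 18 host rises with 2 falls at 1 h. Deviations of same-numbered libraries correlated at 0.20 over 4889 genes with only 2 numbers, so they share only a number. The saturated median of 1.81 was 1.65 to 1.96 without 1 library, 1.69 for the 55 stricter members and 1.95 for those with 50 or more reads. The cause of these shifts was not tested. Length taken as the median over libraries was the same in every case. Log-phase depth, at a median of 6 and 2 reads per member, limits the comparisons with log phase.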

Other observations

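CPT1 and EPT1, which encode the enzymes of the last step in making phosphatidylcholine and phosphatidylethanolamine from diacylglycerol, are both hosts of short introns, and both messengers fell. The pair was chosen after its values were seen. CPT1 messenger fell by 1.12 at 4 h of rapamycin and by 2.32 in the lawn on the log2 scale (SE 0.34 and 0.38, edgeR adjusted p = 0.0402 and 0.00165), and EPT1 messenger by 1.15 and by 2.80 (SE 0.32 and 0.40, adjusted p = 0.0284 and 0.000862). The CPT1 intron had a density of 23.0% at 4 h and 67.6% in the lawn, against 14.6% and 12.5% in log phase. The EPT1 intron had 17.9% at 4 h and 68.0% in the lawn, against 30.7% and 27.5% in log phase, on 4 reads and 1 read at 4 h and in the lawn. Neither intron was called relative to its host.

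The 72-nt intron of CMC4, a small protein of the mitochondrial intermembrane space, had its highest density in log-phase library 1, on 12 reads. It stood at 33.8% and 31.4% in the saturated libraries, 38.0% at 1 h, 32.6% at 4 h, 55.3% in the lawn, and 94.9% and 53.6% in log phase. No contrast of this intron relative to host was called (log2 change of -1.27 ± 0.77 at 4 h and -0.51 ± 0.81 in the lawn, SE, edgeR adjusted p = 0.142 and 0.587).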
